A study of Mus musculus with 19 samples.

Results

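The DNA replication genes followed here are 37 genes of the machinery that copies the genome, chosen by symbol for their known roles and not by a threshold on their signals. Each gene was represented by the probe set annotated to that gene alone with the highest mean signal over the 18 ovary arrays, as for the 18193 genes that had such a probe set. All 37 passed the filter on low signals, as did 12566 of the 18193 genes.

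Replication begins when the origin recognition complex, with the help of Cdc6 and Cdt1, loads the MCM helicase onto DNA in a resting form. Mcm10, Cdc45 and the GINS complex turn the helicase on, primase and the DNA polymerases copy the strands, and the clamp Pcna with its loader holds the polymerases in place. In the fetal ovary the germ cells pass through a last round of replication, premeiotic S phase, as they leave mitosis and enter meiosis, while the somatic cells around them go on cycling or come to rest. Neither oocytes nor follicle cells were separated here, and in whole tissue fewer cells of a type and less RNA per cell cannot be told apart.

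The ovaries were those of wild-type, female, outbred CD-1 mice at gestation day (gd) 11, 12, 14, 16 or 18 or at postnatal day (pnd) 2, and each of the 6 stages had 3 arrays. Matings had been limited to a window of 2 hours. Sample labels describe gd11, gd12 and gd14 RNA as pools of 3 and that of the later stages as unpooled, while the series text speaks of the ovary pair of a single animal in every sample. By that text dams differed between samples, save for gd11 samples 18 and 19, which shared one. For gd11 the labelled tissue was gonad plus mesonephros in samples 16 and 18 but gonad in sample 19. A further array held whole animals of both sexes at pnd 0.5, pooled from 4 males and 4 females. RNA went through 2 rounds of amplification before hybridization to Affymetrix Mouse430_2 arrays, and p-values measure the spread between samples so prepared.

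Before the results, 1 array needs mention: that of gd16 sample 7 had a signal of 44.79 for Xist, the RNA of the inactive X chromosome, against 11306 to 18576 on the other ovary arrays from gd11 to pnd2. This goes against its female label, although the Y-linked gene Eif2s3y had similar low signals on it (40.23) and on the other gd16 arrays (29.83 and 33.08). Counts of called replication genes, S phase regulators and mitosis genes from gd14 to gd16 are therefore also given without sample 7. So are replication and mitosis counts from gd16 to gd18, and the count of replication genes higher at gd14 than the mean of gd12 and gd16. Calls of the replication genes followed here that are lost without sample 7 are named, with some of their values. Calls gained without it enter the counts but are not named. Counts of other markers, of highest and lowest stages and of promoter words were not recomputed without sample 7. The median signal per array ran from 102.94 to 137.56. For Gapdh, the signal near the 3' end over that near the 5' end, which rises as RNA is degraded or shortened in amplification, was 2.987 to 3.28 at gd11 and 5.068 to 5.408 at pnd2. Markers of the labelled tissue were present: the summed signal of 8 genes of the supporting and granulosa lineage was 9898 to 10630.0 at gd11 and 36958 to 39137 at gd14, and that of 8 genes of meiotic entry was 462 to 1774 at gd12 and 26092 to 35965 at gd14.

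Many genes of replication are switched on before S phase by E2F transcription factors, which bind near the start of their targets. RefSeq windows of build GRCm38.p6, from 250 bases before to 50 bases after a start site, were at hand for 31 of the 37 genes. Mcm4, Prim2, Pole, Gins1, Gins2 and Rfc2 had none. The windows were searched on both strands for the E2F words TTTCCCGC, TTTCGCGC, TTTGCCGC and TTTGGCGC and for CCAAT, a common promoter word. An E2F word stood in at least 1 window of 12 of the 31 genes (38.7%), against 704 of all 27025 genes with a window (2.6%). CCAAT stood in 20 of the 31 (64.5%), against 41.1% of all, and both stood in 8 (25.8%), against 1.12%. A match is a description of the sequence and not a measured site.

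Windows are shown for genes whose signals the following results turn on: Orc1, Gins3 and Mcm5 were highest at gd14, Cdc6 and Rrm2 were highest at gd11, and Rpa1 was highest at pnd2. E2F and CCAAT words, on either strand, are in capitals, and the sequences run 5' to 3' along each gene.
Orc1 (chr4:108579204-108579503, + strand): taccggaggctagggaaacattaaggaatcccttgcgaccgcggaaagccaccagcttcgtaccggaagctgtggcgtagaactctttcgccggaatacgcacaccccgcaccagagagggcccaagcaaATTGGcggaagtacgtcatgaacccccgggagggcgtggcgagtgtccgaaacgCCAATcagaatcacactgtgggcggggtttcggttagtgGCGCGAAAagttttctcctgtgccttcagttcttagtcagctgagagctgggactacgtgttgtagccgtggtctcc
Gins3 (chr8:95633309-95633608, + strand): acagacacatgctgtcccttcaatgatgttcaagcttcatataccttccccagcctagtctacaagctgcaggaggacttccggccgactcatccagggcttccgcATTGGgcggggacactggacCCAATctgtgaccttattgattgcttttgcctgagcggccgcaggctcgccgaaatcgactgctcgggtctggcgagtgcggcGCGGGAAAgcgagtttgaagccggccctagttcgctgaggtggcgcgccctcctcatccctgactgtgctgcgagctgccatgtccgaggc
Mcm5 (chr8:75109259-75109558, + strand): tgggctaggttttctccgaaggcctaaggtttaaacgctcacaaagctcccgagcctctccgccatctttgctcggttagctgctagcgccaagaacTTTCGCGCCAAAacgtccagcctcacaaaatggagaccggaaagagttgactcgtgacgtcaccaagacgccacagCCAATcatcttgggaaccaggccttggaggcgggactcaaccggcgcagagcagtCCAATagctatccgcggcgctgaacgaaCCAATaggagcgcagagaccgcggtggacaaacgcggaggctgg
Cdc6 (chr11:98907901-98908200, + strand): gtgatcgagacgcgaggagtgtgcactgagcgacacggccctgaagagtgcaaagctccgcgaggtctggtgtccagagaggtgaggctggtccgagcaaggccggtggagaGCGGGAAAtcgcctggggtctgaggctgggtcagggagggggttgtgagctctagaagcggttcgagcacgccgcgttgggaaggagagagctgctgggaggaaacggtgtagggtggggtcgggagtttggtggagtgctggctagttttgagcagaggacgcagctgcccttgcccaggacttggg
Rrm2 (chr12:24708004-24708303, + strand): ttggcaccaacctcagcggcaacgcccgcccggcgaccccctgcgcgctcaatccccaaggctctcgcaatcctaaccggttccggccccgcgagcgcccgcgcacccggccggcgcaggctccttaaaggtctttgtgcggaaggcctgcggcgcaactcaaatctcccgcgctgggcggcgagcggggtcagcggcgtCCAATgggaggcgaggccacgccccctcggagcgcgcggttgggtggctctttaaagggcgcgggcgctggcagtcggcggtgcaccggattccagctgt
Rpa1 (chr11:75348334-75348633, - strand): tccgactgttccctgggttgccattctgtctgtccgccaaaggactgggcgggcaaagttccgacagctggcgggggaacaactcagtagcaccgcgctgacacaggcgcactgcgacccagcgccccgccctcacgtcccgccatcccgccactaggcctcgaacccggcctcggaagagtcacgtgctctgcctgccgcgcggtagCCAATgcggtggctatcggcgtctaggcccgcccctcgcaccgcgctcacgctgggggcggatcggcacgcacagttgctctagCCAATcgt
Counted from the start site, the E2F word of Orc1 stood at position -27 and that of Gins3 at position -41. In Mcm5, TTTCGCGC on the plus strand at position -153 overlapped TTTGGCGC on the minus strand at position -149. The only word found in Cdc6 was an E2F word at position -138. Rrm2 and Rpa1 held CCAAT and none of the 4 E2F words in these windows, so genes highest at gd11 appear with and without such a word.

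Signals are intensities on a linear scale, and changes are differences of log2(signal + 31) with the standard error of a limma fit. A gene was called at a Benjamini-Hochberg adjusted p under 0.05, taken over all 26431 probe sets tested. By the F test over the 6 stages 33 of the 37 genes were called, where 68.1% of all genes were. Orc2, Prim2, Rfc2 and Fen1 were not called. The median difference between a gene's highest and lowest stage was 1.04 on the log2 scale, and 0.86 over all genes. Stage means were highest at gd11 for 13 of the genes, at gd14 for another 13, at gd12 and pnd2 for 4 each and at gd16 for 3. They were lowest at gd18 for 20 and at gd16 for 11. Over all genes the highest mean fell on gd11 for 21.2%, on gd14 for 12.9%, on gd16 for 22.1% and on pnd2 for 22.4%. The lowest mean fell on gd16 for 13.8% of all genes and on gd18 for 9.79%.

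**Figure D1:**
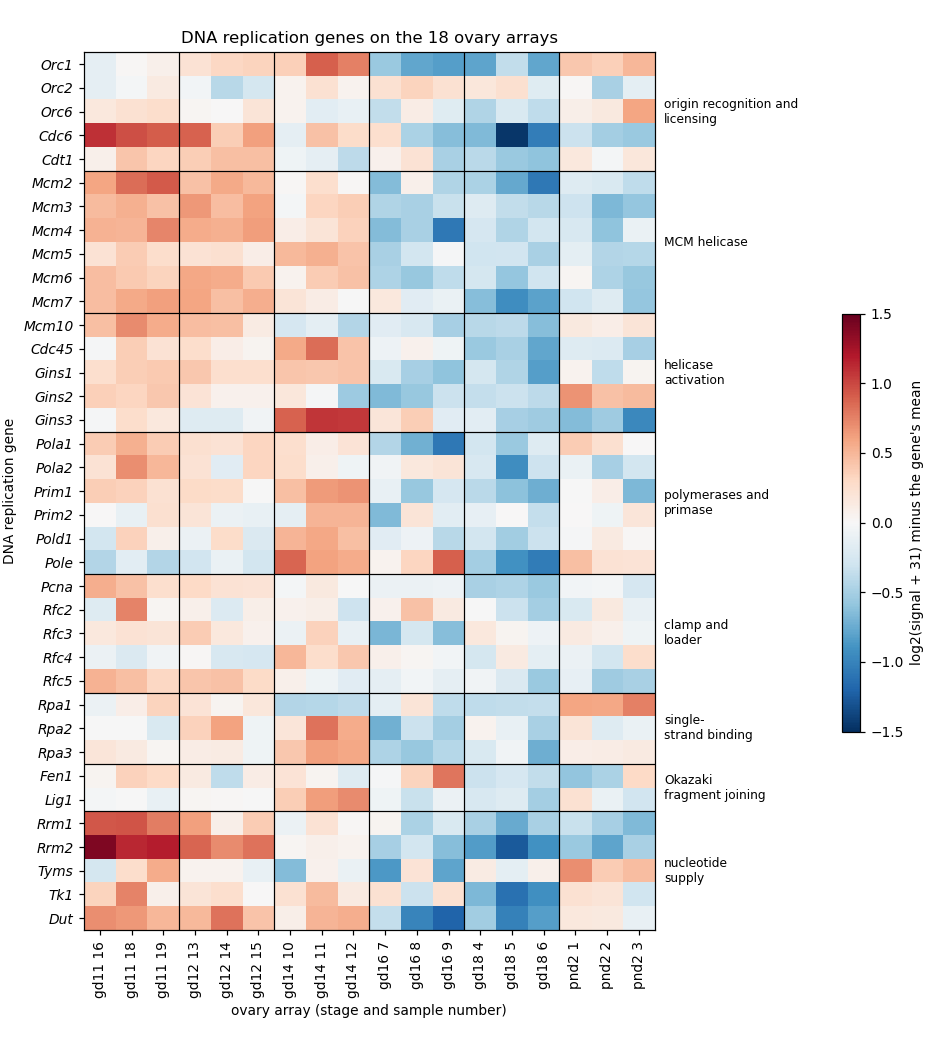
Each row is a DNA replication gene and each column an ovary array, with log2(signal + 31) minus the gene's mean over the 18 arrays as the colour. Rows are grouped by role. The gd11 and gd12 columns are mostly above the mean, several rows peak at gd14, and the gd16 and gd18 columns are mostly below the mean.

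The median gene of the group lay 0.29 ± 0.08 (SD, n = 3 arrays) above its own mean at gd11, 0.19 ± 0.06 above at gd12 and 0.19 ± 0.08 above at gd14. It stood at -0.24 ± 0.08 at gd16, -0.42 ± 0.11 at gd18 and -0.07 ± 0.06 at pnd2. MCM helicase genes had medians of 0.51 ± 0.03 at gd11 and 0.53 ± 0.03 at gd12, against -0.40 ± 0.06, -0.42 ± 0.12 and -0.39 ± 0.15 at the last 3 stages. Polymerases and primase had their highest value, 0.46 ± 0.09, at gd14, as did single-strand binding genes (0.46 ± 0.24). Genes of nucleotide supply went from 0.67 ± 0.10 at gd11 to -0.78 ± 0.25 at gd18. These medians are descriptions, and differences between roles were not tested.

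**Figure D2:**
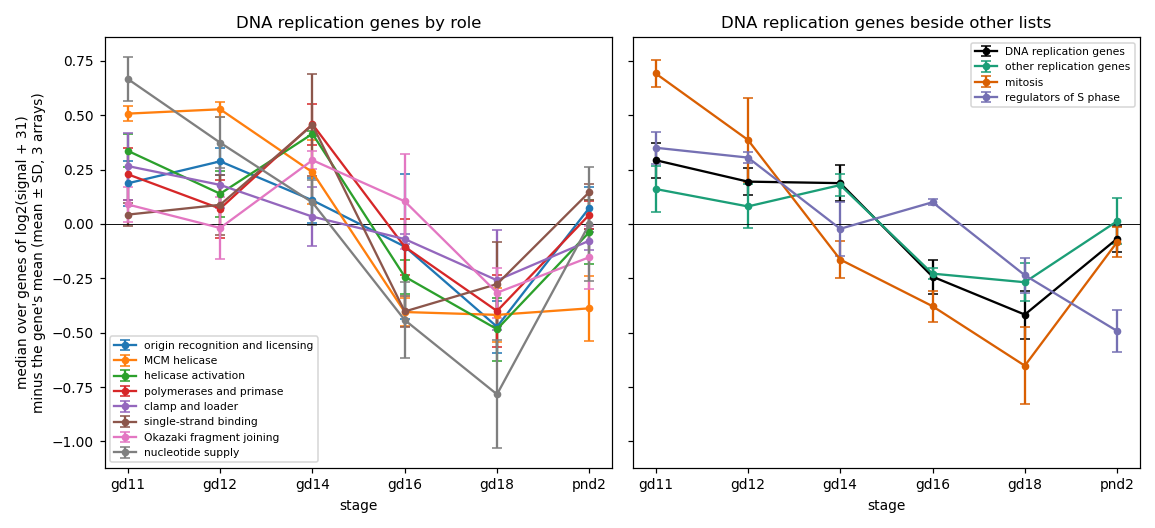
The y axis gives the median over genes of log2(signal + 31) minus the gene's mean, as mean ± SD of 3 arrays at each of the 6 stages on the x axis, for the 8 roles (left) and for the whole group beside 3 other lists (right). Stages are evenly spaced although their days are not. The MCM line stays high to gd12 and low from gd16 on, and the mitosis line is already below 0 at gd14, where the replication lines are above it.

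From gd11 to gd12, when germ cells are still dividing, 0 of 37 genes were called in either direction by limma, and 2 had an unadjusted p under 0.05. Of all genes 3.3% were called higher and 1.42% lower. The median change was -0.06 (0.00 over all genes). The 2 genes were Rrm1 and Rrm2, the large and small subunits of ribonucleotide reductase, which makes deoxynucleotides. Rrm2 had signals of 11669.7, 9688 and 10006 at gd11 and 8066, 7213 and 7803 at gd12, a change of -0.44 ± 0.13 (adjusted p = 0.0647). By the probe set used, every gd12 array of Rrm2 lay below every gd11 array, but the change was not called. Cdc6, which loads the helicase, had 2547, 2334 and 2233 and then 2209, 1529 and 1816. Its arrays also did not overlap, and its change was also not called (adjusted p = 0.415). Of the other Rrm2 probe sets, that with a mean signal of 2747 was called lower (-0.56, adjusted p = 0.0417). That with a mean signal of 863 was not called (-0.65, adjusted p = 0.0547). The summed signal of 6 mesonephros and duct markers was 3624 to 5079.6 at gd11 and 2379 to 3105 at gd12, with 1 of the 6 called lower. Of 7 germ cell markers 6 rose, as did 6 of 8 supporting and granulosa markers and 2 of 8 genes of meiotic entry. Falls were called for 2 of 7 erythroid markers. The part of these cells in the values above was not tested.

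Between gd12 and gd14, the days around premeiotic S phase, 7 of the 37 genes rose (11.6% of all genes did) and 5 fell (8.01% of all). The other 25 were not called. The median change was -0.07, against -0.02 over all genes. Genes that rose act in helicase activation (Gins3 and Cdc45), synthesis (Pole and Pold1), clamp loading (Rfc4), single-strand binding (Rpa3) and strand joining (Lig1). Those that fell were Cdt1, which licenses origins, Mcm7 of the helicase ring, Mcm10, the single-strand binding subunit Rpa1, and Rrm2.

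Gins3, a subunit of the GINS complex of the active helicase, had signals of 427, 527 and 489 at gd11, 376, 375 and 418 at gd12, 826, 946 and 939 at gd14, 494, 571 and 383 at gd16, 384, 298 and 289 at gd18, and 265, 289.7 and 206 at pnd2. All 3 gd14 arrays lay above the other 15, and the rise from gd12 was 1.15 ± 0.17 (adjusted p = 0.000121). Pole, the catalytic subunit of the leading-strand polymerase epsilon, went from 809, 929 and 817 to 1839.9, 1524 and 1474, with no overlap and a change of 0.89 ± 0.19 (adjusted p = 0.00329). Lig1, the ligase that seals Okazaki fragments, went from 2114, 2102 and 2062 to 2693, 3230.3 and 3408, so that its lowest gd14 array stood clear of its highest gd12 array (0.56 ± 0.14, adjusted p = 0.0111). Rfc4, a subunit of the clamp loader, showed 1732, 1437 and 1429 and then 2434, 2055 and 2271 (0.55 ± 0.15, adjusted p = 0.0145). Smaller rises were those of Pold1, the catalytic subunit of polymerase delta (0.52 ± 0.17), Cdc45, a helicase co-factor (0.48 ± 0.16), and Rpa3, the smallest single-strand binding subunit (0.48 ± 0.15).

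Among the falls, Rrm2 went from 8066, 7213 and 7803 to 4493, 4642 and 4569.7, and its arrays at gd14 lay within a narrow band (-0.75 ± 0.13, adjusted p = 0.000581). Mcm10, which helps to activate the helicase, went from 1264, 1249 and 993 to 759, 819 and 660.3 (-0.62 ± 0.14), and Cdt1 from 4945, 5239 and 5255 to 3677, 3490.2 and 2903 (-0.62 ± 0.15). Rpa1, the large single-strand binding subunit, went from 8509, 7585 and 8303 to 5449, 5469.9 and 5633 (-0.56 ± 0.13, adjusted p = 0.00557), while Rpa3 of the same complex rose and Rpa2 was not called (0.23 ± 0.19). In all 4 the arrays of both stages stood apart. Mcm7 fell by 0.43, and of the other 5 helicase subunits Mcm5 had a change of 0.30 and the rest lay between -0.40 and -0.22 without being called. The second probe sets of Mcm4 (-0.55, adjusted p = 0.00283) and Mcm2 (-0.44, adjusted p = 0.0277) were called lower, however.

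The count of rises moved with single arrays and settings: it was 10 with array quality weights, 3 without gd12 sample 15, 4 without gd12 sample 13 or any 1 of the gd14 samples 10, 11 and 12, 5 without gd12 sample 14, and 4 with no filter on low signals, while the falls numbered 3 without gd14 sample 12, 8 when only both stages were fitted or with those weights, and 2 with the most variable probe set per gene. Calls of Gins3, Pole and Rrm2 held in each of the 17 alternatives and left-out arrays in which they were tested without an added fold threshold, that of Cdc45 in 7, that of Pold1 in 9 and that of Rpa3 in 10. With the average over every probe set per gene Cdt1 and Mcm10 were not called, and with the most variable probe set Rpa1 was not.

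Beside these values, 8 of 8 genes of meiotic entry rose, 4 of 6 mesonephros and duct markers fell (summed signal 2379 to 3105 at gd12 and 262 to 917 at gd14), and 9 of 13 genes of mitosis fell while 1 rose. Of 7 germ cell markers 3 rose and 1 fell (summed signal 3705 to 11278 at gd12 and 22569 to 27161 at gd14), 4 of 8 supporting and granulosa markers and 2 of 6 oocyte markers rose, and 2 of 6 endothelial and 2 of 7 erythroid markers fell. The part of these in the changes above was not tested. Of the mitosis list, Aurkb, a kinase of chromosome segregation, changed by -0.97 ± 0.18 while Bub1, which guards chromosome attachment, changed by 1.13 ± 0.17.

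To set gd14 against both of its neighbours, it was compared with the mean of gd12 and gd16. Here 13 genes were higher at gd14 (8.49% of all genes were) and 1 was lower (5.31% of all). The median difference was 0.18, against -0.06 over all genes. The 13 were Orc1 of the origin recognition complex, Mcm5, Cdc45, Gins1 and Gins3, Prim1, Pold1 and Pole, Rfc4, Rpa2 and Rpa3, Lig1 and Dut, and the 1 lower gene was Rpa1. A gene can be called here without being higher at gd14 than at gd12. From gd12 to gd14 Dut changed by -0.20 and Gins1 by 0.11, neither being called. The comparison with the mean of gd12 and gd16 shares arrays with those of gd14 with gd12 and of gd16 with gd14. Its calls are therefore not independent of theirs.

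The largest of these differences was that of Gins3 (1.01 ± 0.15, adjusted p = 0.00015). Orc1, the largest subunit of the origin recognition complex, had signals of 338, 377 and 396 at gd11, 439, 468 and 480.0 at gd12, 485, 718 and 649 at gd14, 243, 205 and 197 at gd16, 202, 282 and 205 at gd18, and 505, 486 and 541 at pnd2. Its gd14 arrays lay above all arrays of gd11, gd12, gd16 and gd18 but overlapped those of pnd2, and the difference was 0.88 ± 0.14 (adjusted p = 0.00046). Prim1, the catalytic subunit of primase, had 4470.2, 4401 and 4052 at gd11, 4234, 4204 and 3454 at gd12, 4718, 5381 and 5527 at gd14, 3190.4, 2320.1 and 2886 at gd16, 2596, 2253 and 2073 at gd18, and 3451, 3694 and 2151 at pnd2. The 3 gd14 arrays were the highest of all 18 (0.65 ± 0.15, adjusted p = 0.00764). Rpa3 showed 987, 994 and 868 at gd12, 1212, 1413 and 1377 at gd14 and 653, 602 and 668 at gd16 (0.75 ± 0.13, adjusted p = 0.00092). Its gd14 arrays too stood above the other 15.

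Arrays of gd14 lay above all other ovary arrays for 7 of the 37 genes, namely Mcm5, Cdc45, Gins3, Prim1, Pold1, Rpa3 and Lig1, where 3.55% of all genes showed this. For Mcm5, a subunit of the helicase ring, signals were 8692, 9743 and 8963 at gd11, 8689, 8823 and 7999 at gd12, 10486, 10824 and 10060.1 at gd14, 5316, 6157 and 7364 at gd16, 6088, 6096 and 5315 at gd18, and 6739, 5516 and 5565 at pnd2. By the probe sets used it was the only 1 of the 6 ring subunits called here (0.52 ± 0.10). Its lowest gd14 array exceeded its highest array of any other stage. Further probe sets of Mcm3 (0.48, adjusted p = 0.0234) and Mcm6 (0.33, adjusted p = 0.0298) were also called higher. The other tested ones of Mcm3 and those of Mcm2, Mcm4 and Mcm7 were not called. Cdc45 had 555, 734 and 654 at gd11, 677, 601 and 578 at gd12, 845, 1023 and 767 at gd14, 528, 587 and 536 at gd16, 370.2, 393 and 312 at gd18, and 488, 481 and 386 at pnd2. Its gd14 values also spread the most of any stage, from 767 to 1023 (0.56 ± 0.14). The weaker second probe set of Cdc45, with a mean signal of 187, differed by -0.09 (adjusted p = 0.772). With the mean of its probe sets Cdc45 was not called. Rpa1 ran the other way, with 8509, 7585 and 8303 at gd12, 5449, 5469.9 and 5633 at gd14 and 6662, 8468 and 5652 at gd16 (-0.43 ± 0.11). Its gd14 arrays lay below those of both neighbours, though gd16 sample 9 came close.

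The 13 higher genes became 8 without gd14 sample 11 or sample 12 and 7 with the average over every probe set per gene, and numbered 13, but without Pole, when gd16 sample 7 was left out. The median difference was 0.09 without gd14 sample 11, and the call of Rpa1 was lost without any 1 of the gd14 samples, after median scaling and with either other choice of probe sets. With the mean of its probe sets Orc1 differed by 0.32 and was not called. Its second probe set, of similar mean signal, differed by -0.25 (adjusted p = 0.271). That probe set was called lower at gd14 than at gd12 (-0.52, adjusted p = 0.0352), so the gd14 peak of Orc1 rests on 1 probe set.

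**Figure D3:**
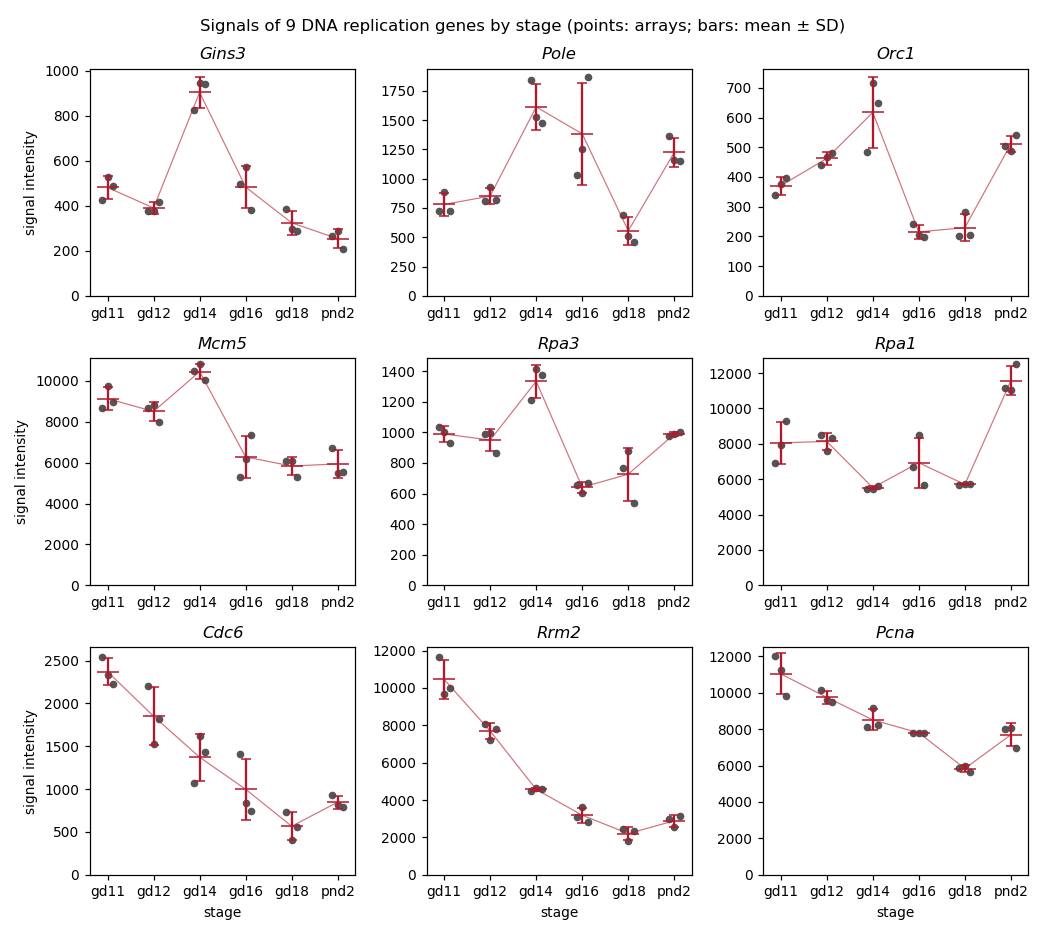
Signal intensity of 9 DNA replication genes (y axis, linear from 0) at the 6 stages (x axis). Points are arrays, and bars are the mean ± SD of the 3 arrays of a stage. Gins3, Mcm5 and Rpa3 have their highest points at gd14, Cdc6, Rrm2 and Pcna go down from gd11 to gd18, and Rpa1 is highest at pnd2.

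By gd16 a broad drop had set in: 17 of the 37 genes were lower than at gd14 (9.77% of all genes were) and 0 were higher (11.4% of all). The median change was -0.48, against 0.09 over all genes, and 31 of the 37 changes were negative. Every role lost at least 1 gene, among them Orc1, 4 of the 6 helicase subunits, 3 of 5 helicase activation genes, 3 of 6 polymerase and primase genes, Rfc3 of the clamp loader, Rpa2 and Rpa3, Lig1, and Rrm2 and Dut. Without gd16 sample 7 the counts were again 17 lower and 0 higher (median -0.40), and without gd16 sample 9 there was 1 higher gene. After median scaling, which gives all genes a median change of -0.08, 24 of the 37 were lower.

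Orc1 had the largest fall by these probe sets, from 485, 718 and 649 to 243, 205 and 197, and its arrays of the 2 stages stood far apart (-1.39 ± 0.17, adjusted p = 2.8e-05, and -1.47 without gd16 sample 7). With the mean of its probe sets the fall was -0.70, and its second probe set, of similar mean signal, changed by -0.02 (adjusted p = 0.951), so that the size rests on 1 probe set. Dut, which clears dUTP so that uracil is kept out of DNA, fell from 3336, 4490.4 and 4585 to 2442, 1569 and 1355 (-1.23 ± 0.19, adjusted p = 0.000283, -1.47 without gd16 sample 7, and -0.40, not called, with the mean of its probe sets). Rpa2 had 1629, 1625 and 1392 at gd11, 2079.6, 2500.4 and 1557 at gd12, 1862, 2900.0 and 2426 at gd14, 981, 1302 and 1141 at gd16, 1689, 1512 and 1158 at gd18, and 1867, 1419 and 1521 at pnd2. All its gd16 arrays lay below every array of the 3 earlier stages (-1.04 ± 0.19, adjusted p = 0.00126). Rpa3 fell by 1.02 (adjusted p = 0.000202), and without gd16 sample 7 the changes of Rpa2 and Rpa3 were -0.93 and -1.03.

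Falls of the helicase ring were -0.94 ± 0.14 for Mcm4, -0.76 ± 0.15 for Mcm6, -0.75 ± 0.12 for Mcm5 and -0.65 ± 0.13 for Mcm3. Mcm2 (-0.44 ± 0.17) and Mcm7 (-0.14 ± 0.11) were not called. Another probe set of Mcm7 was called lower (-0.79, adjusted p = 0.000168), and its others changed by -0.455 and -0.456 without being called. The second probe set of Mcm4 changed by -0.22 and was not called (adjusted p = 0.196). Among polymerase genes, Pola1, the catalytic subunit of the polymerase that extends primers, fell by 0.93, Prim1 by 0.90 and Pold1 by 0.73, while Pole was not called (-0.25 ± 0.19) and spread widely at gd16 (1029.6, 1251 and 1869). Gins3, Gins1 and Cdc45 fell by 0.88, 0.86 and 0.64, Lig1 by 0.73, Rfc3 by 0.57 and Rrm2 by 0.52. Rfc4 was not called (-0.37), but its second probe set, of similar mean signal, was called lower (-0.85, adjusted p = 0.0015). With the mean of all probe sets Pola1 (-0.37), Cdc45 (-0.26) and Mcm5 were not called, and Rfc3 was not called without gd16 sample 7, gd16 sample 9 or gd14 sample 11. Without gd14 sample 11 Cdc45 was not called either. Pcna, the sliding clamp, had 8118, 9165 and 8237 at gd14 and 7795, 7786 and 7809 at gd16 and was not called (-0.12 ± 0.10). Fen1, the nuclease that trims Okazaki fragments, had 5686, 7052 and 6816 at gd11, 6062, 4231 and 6009 at gd12, 6409.6, 5709 and 4834 at gd14, 5467, 6990.2 and 9655 at gd16, 4434, 4640.4 and 4266 at gd18, and 3664, 3991 and 6796 at pnd2. Its arrays overlapped between all adjacent stages but gd16 and gd18, and its gd16 sample 9 was the highest of the 18.

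Of the genes with a promoter window, 9 of the 15 lower at gd16 held an E2F word, and 3 of the 16 that were not called did. Among genes higher at pnd2 than at gd18 the count was 4 of 10, against 8 of 21 not called, and among those lower at pnd2 than at gd11 it was 6 of 16, against 5 of 13 not called. None of these differences was tested. Over the same days 5 of 8 genes of meiotic entry and 4 of 13 genes of mitosis fell, and of 7 erythroid markers 4 rose and 2 fell, with a summed signal of 33490.0 to 36691 at gd14 and 5776 to 9779 at gd16. Most of that sum at gd14 was the globin Hbb-y, with 32142, 34331 and 31771 at gd14 and 3749, 1698 and 2077 at gd16. The median erythroid marker lay 0.21 ± 0.49 above its own mean at gd14 and 1.28 ± 0.42 above at gd16. Of 7 germ cell markers 2 fell, with a summed signal of 22569 to 27161 at gd14 and 10445 to 13039 at gd16. Rises were called for 3 of 6 oocyte, 2 of 8 supporting and granulosa and 2 of 5 macrophage and leukocyte markers. The mitosis count was again 4 without gd16 sample 7. The part of cells of other types in the falls was not tested.

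**Figure D4:**
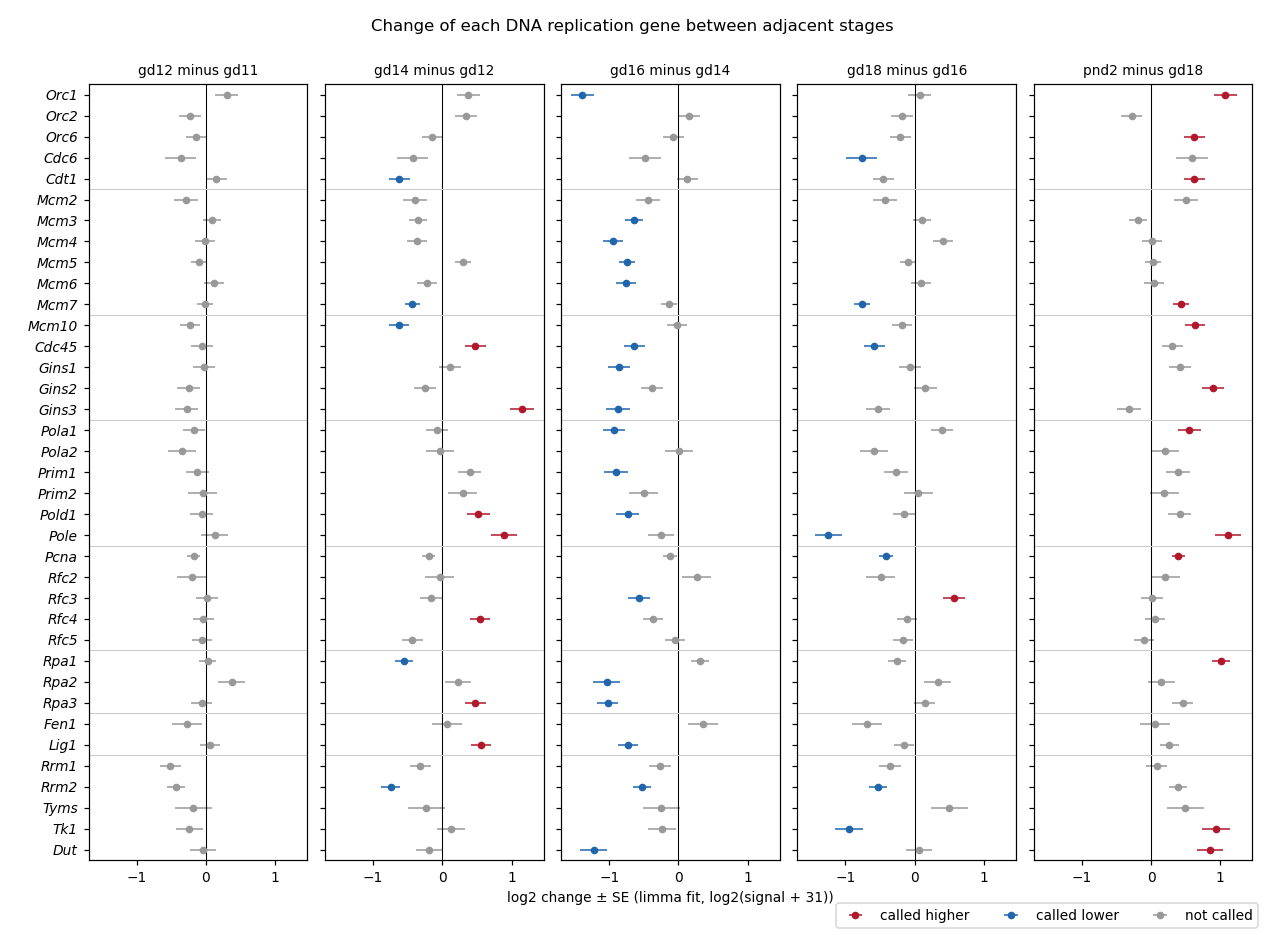
Log2 change ± SE of each DNA replication gene (rows, grouped by role) between adjacent stages (panels). Red points were called higher, blue points lower, and grey points were not called at an adjusted p under 0.05. No point is coloured between gd11 and gd12, both colours appear between gd12 and gd14, the gd16 panel holds 17 blue points and no red one, and the last panel 12 red points and no blue one.

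From gd16 to gd18, 7 genes fell (3.25% of all genes did) and 1 rose (4.94% of all), with a median change of -0.18 (-0.03 over all genes). Pole fell most, from 1029.6, 1251 and 1869 to 689, 514 and 463 (-1.25 ± 0.19, adjusted p = 0.000669, and -1.43 without gd16 sample 7). Its gd18 arrays lay below all other ovary arrays. Tk1, the thymidine kinase of nucleotide salvage, had 1044, 1399.8 and 871 at gd11, 946, 984 and 822 at gd12, 967, 1151 and 909 at gd14, 967, 651 and 964 at gd16, 505, 362 and 421 at gd18, and 968, 942 and 660.5 at pnd2. Its gd18 arrays were likewise the lowest of the 18 (-0.94 ± 0.20, adjusted p = 0.00755).

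Mcm7 went from 12528, 9940.5 and 10481 to 7187, 5832 and 6416, with no overlap (-0.76 ± 0.11, adjusted p = 0.000577). Cdc6 had 2547, 2334 and 2233 at gd11, 2209, 1529 and 1816 at gd12, 1071, 1616 and 1430.4 at gd14, 1409, 839 and 746 at gd16, 731, 409 and 559.6 at gd18, and 935, 817 and 792 at pnd2. At gd16 its sample 7 stood well above the other 2, and the fall of -0.77 ± 0.23 (adjusted p = 0.0443) was -0.50 and not called without that sample. Pcna fell from 7795, 7786 and 7809 to 5888, 5997 and 5623 (-0.42 ± 0.10, adjusted p = 0.0116), and Cdc45 and Rrm2 fell by 0.58 and 0.53. The call of Cdc45 held in 8 of 17 alternatives and left-out arrays and was lost without any 1 of the gd16 samples or gd18 sample 4 or 6, and that of Rrm2 held in 12 of 17 and was lost without gd16 sample 8 or gd18 sample 5. The call of Cdc6 was also lost without gd18 sample 5 or 6. The 1 rise by the probe sets used was that of Rfc3, from 366, 501 and 381 to 682, 624 and 573 (0.57 ± 0.16, adjusted p = 0.0355). The second probe set of Rfc3 was not called (0.15). Other probe sets of Rfc4 (0.58, adjusted p = 0.0355) and Mcm6 (0.46, adjusted p = 0.0152), of similar mean signal to those used, were called higher.

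Gd18 held the lowest arrays of 6 genes, Cdc6, Mcm7, Pole, Pcna, Rrm2 and Tk1, where 0.629% of all genes had their 3 lowest arrays at that stage. Without gd16 sample 7 there were 6 falls, Cdc6 and Cdc45 not among them, and 0 rises, Rfc3 having a change of 0.49 then, and the rise of Rfc3 was also lost without gd16 sample 9 or gd18 sample 4 or 5, whereas 3 genes rose without gd16 sample 8. After median scaling 3 genes fell and 2 rose, and in a fit of the 2 stages alone 3 fell and 0 rose. Over these days 5 of 6 oocyte markers and 2 of 7 germ cell markers rose, 2 of 13 mitosis genes fell (1 without gd16 sample 7), and 5 of 7 erythroid markers fell, with a summed signal of 5776 to 9779 at gd16 and 933 to 3651 at gd18, and the part of these cells was not tested.

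After birth the direction turned: between gd18 and pnd2, 12 genes rose (8.48% of all genes did) and 0 fell (6.85% of all). The median change was 0.39, against -0.03 over all genes, and 33 of the 37 changes were positive. The genes came from licensing (Orc1, Orc6, which completes the origin recognition complex, and Cdt1), the helicase and its activation (Mcm7, Mcm10 and Gins2), synthesis (Pola1, Pole and Pcna), single-strand binding (Rpa1) and nucleotide supply (Tk1 and Dut). Pnd2 arrays lay above all others for Rpa1 and Gins2, a pattern of 7.6% of all genes.

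Pole went from 689, 514 and 463 to 1366, 1158 and 1152 (1.11 ± 0.19, adjusted p = 0.000736), Orc1 from 202, 282 and 205 to 505, 486 and 541 (1.07 ± 0.17, adjusted p = 0.00029) and Rpa1 from 5653, 5713 and 5734 to 11178, 11024 and 12494 (1.01 ± 0.13, adjusted p = 4.11e-05). With the mean of its probe sets Orc1 rose by 0.58, and its second probe set changed by 0.08 (adjusted p = 0.8). In each of the 3 genes, by the probe sets given, the lowest pnd2 array stood well above the highest gd18 array. Tk1 rose by 0.94, Gins2, of the GINS complex, by 0.89 and Dut by 0.85. Orc6, Mcm10 and Cdt1 rose by 0.63, 0.63 and 0.62, Pola1 by 0.55, Mcm7 by 0.44 and Pcna by 0.39. Of the helicase ring, Mcm3 to Mcm6 had changes between -0.19 and 0.05, and Mcm2 had 0.50 without being called.

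Of the 13 mitosis genes 6 rose over the same days and 0 fell, including the ubiquitin-conjugating enzyme of mitotic exit Ube2c (2.43 ± 0.18). Without pnd2 sample 1, 8 replication genes rose, and without gd18 sample 4, 15 did. The samples of both stages are labelled as not pooled, and 2 of 7 erythroid markers fell, with summed signals of 933 to 3651 at gd18 and 171 to 377 at pnd2. Of 6 oocyte markers 2 rose (summed signal 6321 to 12607 at gd18 and 19150.1 to 27176 at pnd2), as did 2 of 7 germ cell markers, while 4 of 8 genes of meiotic entry, 2 of 8 supporting and granulosa markers and 1 of 6 endothelial markers fell. The part of these was not tested.

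Set directly against gd11, pnd2 had 18 lower genes (20.6% of all genes were) and 3 higher genes (26.3% of all), with a median of -0.43 against 0.04 over all genes. All 6 subunits of the helicase ring were lower, from -1.05 ± 0.17 for Mcm2 to -0.62 ± 0.12 for Mcm5. Rrm2 had 11669.7, 9688 and 10006 at gd11, 8066, 7213 and 7803 at gd12, 4493, 4642 and 4569.7 at gd14, 3112, 3627 and 2814 at gd16, 2455, 1821 and 2339 at gd18, and 2987, 2531 and 3145 at pnd2. Its pnd2 arrays lay below every array of gd11, gd12 and gd14, and the fall from gd11 was the largest of the group (-1.85 ± 0.13, adjusted p = 3.45e-09). Cdc6 changed by -1.45 ± 0.23 and Rrm1, from 6299, 6326 and 5593 to 2607, 2319.8 and 2059, by -1.38 ± 0.15 (adjusted p = 1.17e-06). Mcm2 went from 3855, 4606 and 4857 to 2226, 2178 and 1953. For Cdc6, Mcm2, Pola1, Rrm1 and Rrm2 the gd11 arrays were the highest of all 18, as for 4.04% of all genes.

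Pcna had 12041, 11239 and 9828 at gd11, 10158, 9575 and 9502 at gd12, 8118, 9165 and 8237 at gd14, 7795, 7786 and 7809 at gd16, 5888, 5997 and 5623 at gd18, and 8032, 8079 and 6958 at pnd2. Its signal was lowest at gd18, and at pnd2 it was below gd11 without overlap (-0.52 ± 0.10, adjusted p = 0.000245). The other falls were those of Gins3 (-0.85), the clamp loader subunit Rfc5 (-0.81), the polymerase alpha subunit Pola2 (-0.76), Dut (-0.55), Prim1 (-0.51), Cdc45 (-0.49), Gins1 (-0.43) and Mcm10 (-0.43). Higher at pnd2 were Pole (0.63 ± 0.19), Rpa1 (0.53 ± 0.13) and Orc1 (0.43 ± 0.17, adjusted p = 0.0415).

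The call of Orc1 held in 6 of 19 alternatives and left-out arrays, and a second probe set of Orc1 was called in the opposite direction (-0.66), the only such case among 34 further probe sets of 26 of the genes. With gd11 represented by its sample labelled gonad alone 0 genes were higher and 12 lower, the calls of Cdc45, Dut, Gins1, Mcm10, Pcna and Prim1 being lost. With gd11 samples 18 and 19, which share a dam, averaged, 15 were lower, and Cdc45, Gins1, Mcm10 and Orc1 were not called. With 1 array left out 13 to 17 were lower, fewest without gd11 sample 18. After median scaling 1 gene was higher, and without pnd2 sample 3 the median was -0.27. The 3' over 5' value of Gapdh did not overlap between these stages. Of 6 mesonephros and duct markers 5 were lower at pnd2 (201 to 604 summed, against 3624 to 5079.6 at gd11), as were 6 of 7 erythroid markers and 5 of 6 neuronal markers, whose summed signal was 1266 to 18247 at gd11 and 942 to 1671 at pnd2. Of 7 germ cell, 6 oocyte and 8 supporting and granulosa markers 6 each were higher, as were 4 of 8 genes of meiotic entry. Also lower were 3 of 6 endothelial and 1 of 5 macrophage and leukocyte markers, while 1 neuronal marker was higher. The part of any of these was not tested.

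No call between adjacent stages was made for 9 of the genes: Orc2, Mcm2, Pola2, Prim2, Rfc2, Rfc5, Fen1, Rrm1 and Tyms. Of these, Mcm2, Pola2, Rfc5 and Rrm1 were lower at pnd2 than at gd11. Orc2, a core subunit of the origin recognition complex, ran between 750 and 1342 over the 18 arrays, with an adjusted p of 0.0556 over stages, and Prim2, the large subunit of primase, between 410 and 962 (adjusted p = 0.293). Tyms, which makes thymidylate, had 97.4, 238 and 104 at gd16, 222, 180.0 and 215 at gd18 and 346, 272 and 289.5 at pnd2. Its arrays overlapped between all adjacent stages except gd18 and pnd2 (0.49 ± 0.27, not called).

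Signals at pnd2 were also set beside the array of whole newborn animals, without a test because that array is single. It lay below all 3 pnd2 arrays for 32 of the 37 genes, above them for 2 and among them for 3. Of all 12566 genes tested it lay below for 6235 and above for 4195 (33.4%). The median log2 difference, pnd2 ovary minus whole animal, was 0.82 for the group and 0.20 over all genes. Orc1 had 68.17 in the whole animals and 505, 486 and 541 in the pnd2 ovaries, Pole had 209 and 1366, 1158 and 1152, and Orc6 had 294 and 1109, 1164 and 1588. The 2 genes above the ovary arrays were Rrm2, with 4129 against 2987, 2531 and 3145, and Cdc6, with 944 against 935, 817 and 792. Age, tissue and sex all differ between these samples and cannot be told apart.

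**Figure D5:**
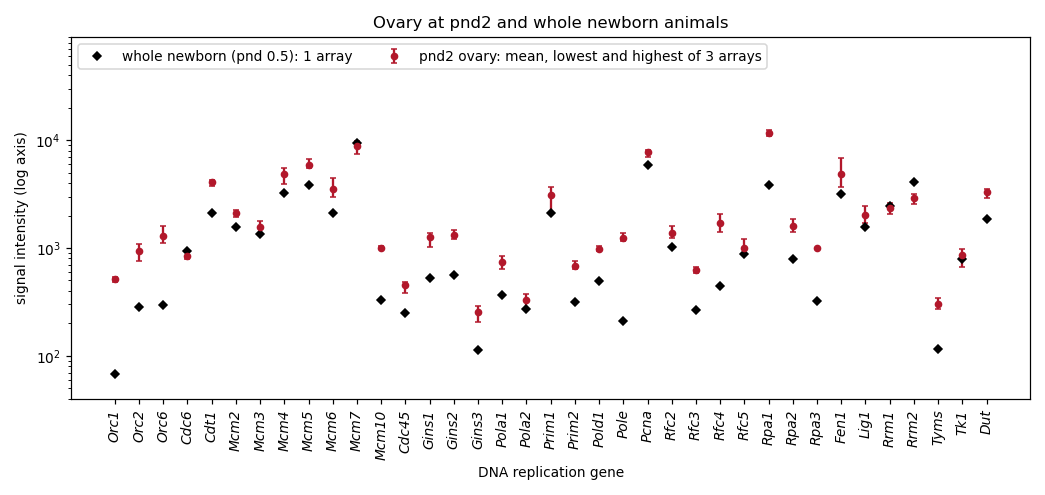
Signal intensity (log y axis) of each DNA replication gene (x axis) in the pnd2 ovary, as mean with the lowest and highest of 3 arrays (red), and in whole newborn animals, 1 array (black). Black points lie below the red range for 32 genes and above it for Rrm2 and Cdc6.

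Beyond the 37, 49 further genes of replication, its nucleotide supply and chromatin assembly were tested. From gd11 to gd12, 2 rose and 3 fell, where 3.3% and 1.42% of all genes did. From gd12 to gd14, 8 rose and 3 fell (median 0.06), where 11.6% and 8.01% of all genes did. From gd14 to gd16, 1 rose and 21 fell (median -0.38), where 11.4% and 9.77% of all genes did, and the counts were again 1 and 21 without gd16 sample 7. Asf1b, a histone chaperone of replicating chromatin, had 1597, 1354 and 1038 at gd11, 988, 959 and 896 at gd12, 3451, 3513 and 3353 at gd14, 1092, 1342 and 1739.8 at gd16, 1041, 1287 and 906 at gd18, and 1663, 1243 and 1077 at pnd2. Its gd14 arrays stood above all others (1.83 ± 0.19, then -1.31 ± 0.19). Rrm2b, an alternative small subunit of ribonucleotide reductase, rose by 1.13 from gd12 to gd14, when Rrm2 fell, with 657, 693 and 537 and then 1349, 1323 and 1555. Hells, a chromatin remodeler of DNA methylation, rose from gd11 to gd12 (0.70 ± 0.17) and again to gd14 (1.06 ± 0.17), then fell by 1.59. Dck, a kinase of nucleoside salvage, fell from 12598, 10688 and 12493 to 2789.5, 3023 and 4061 (-1.86 ± 0.13, adjusted p = 1.28e-07).

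Pclaf, a partner of Pcna, fell from gd11 to gd12 (-0.56 ± 0.15), from gd12 to gd14 (-0.93 ± 0.15) and from gd16 to gd18 (-0.64 ± 0.15). Ung, which removes uracil from DNA, rose by 1.06 to gd12, fell by 0.79 to gd14 and by 0.80 to gd16, and rose by 0.89 to gd18. From gd18 to pnd2, 12 of the 49 rose and 3 fell (median 0.28), where 8.48% and 6.85% of all genes did. Uhrf1, which guides DNA methylation behind the fork, was among those that rose (1.17 ± 0.25), with 2195, 1992 and 1261 and then 6457, 3921 and 2543. Chtf18, of an alternative clamp loader, was called higher too, but its gd18 arrays were all below the filter on low signals, and no size is given. From gd16 to gd18, 3 rose and 5 fell, where 4.94% and 3.25% of all genes did, but 3 rose and 0 fell without gd16 sample 7, and the median of -0.04 was 0.05 after median scaling. Between gd11 and pnd2, 9 were higher and 16 lower, where 26.3% and 20.6% of all genes were, among them Orc5, of the origin recognition complex, higher (1.25 ± 0.16) and Dna2, a nuclease of Okazaki fragments, lower (-1.66 ± 0.18).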

How the data were processed

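Signal intensities from Mouse430_2 arrays were deposited by the authors, made with GCOS per the submitters' processing notes; the sources used here name neither its version nor its settings. Each array had a mean of 500 after the lowest and highest 2% of its values were left out. A linear intensity was taken as log2(signal + 31), with no further normalization. Probe sets with a stage mean above 116.05 were tested (26431), all 18 ovary arrays entering 1 limma fit (limma 3.58.1 in R 4.3.3, with a mean-variance trend and 12 residual degrees of freedom), with two-sided p-values adjusted by Benjamini-Hochberg. The procedure was tested on simulated data. Of 45101 probe sets, 34958 had 1 gene symbol, 932 several and 9211 none.

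Genes, lists and comparisons were chosen with earlier results of these data known. Every array is given for 10 genes chosen by role and, in each comparison, for up to 4 called genes with the largest rise and 4 with the largest fall among those whose arrays do not overlap. Alternatives concerned normalization, filter, pseudocount, probe set choice, variance model, samples and left-out arrays. For lists beside the 37 genes, other scaling and leaving out gd16 sample 7 were chosen after seeing the data. The number of arrays limits the precision.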

Additional observations from a re-analysis of the deposited data

How the results depend on the processing

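Of 269 values of the main comparisons recomputed under alternatives other than leaving out an array, 226 kept their direction, their side of the threshold and their size within the limits set. The other 43 follow, and the cause was not tested. With quantile normalization 1 gene was higher at gd16 than at gd14. With median scaling 2 genes were lower at gd12 than at gd11 (median -0.18), the gd16 minus gd14 median was -0.67, gd18 minus gd16 gave 2 higher and 3 lower (median -0.10), pnd2 minus gd11 gave 1 higher (median -0.58), and gd14 against the mean of its neighbours gave 0 lower (median 0.28). This scaling moved the median of all genes from 0.00 to -0.11 between gd11 and gd12, from 0.09 to -0.08 between gd14 and gd16, and from 0.04 to -0.10 between gd11 and pnd2. With no filter 4 genes rose from gd12 to gd14, and with the stricter filter 1 fell from gd11 to gd12. With the arrays compared alone in the fit 8 genes fell from gd12 to gd14, and gd18 minus gd16 gave 0 higher and 3 lower. With array quality weights those counts were 8 lower and 0 higher, and gd14 against its neighbours gave 2 lower. With only the gd11 array labelled gonad, 0 genes were higher at pnd2. With a change of at least 1 also required, gd14 minus gd12 gave 1 higher and 0 lower, gd16 minus gd14 gave 4 lower, gd18 minus gd16 gave 0 higher and 1 lower, pnd2 minus gd18 gave 3 higher, pnd2 minus gd11 gave 0 higher and 4 lower, and gd14 against its neighbours gave 1 higher and 0 lower. With the mean of all probe sets 1 gene was lower at gd12 than at gd11, the gd16 minus gd14 median was -0.38, 0 rose from gd16 to gd18, the pnd2 minus gd18 median was 0.28, the pnd2 minus gd11 median was -0.33 with Orc1 turned to -0.11, and gd14 against its neighbours gave 7 higher and 0 lower (median 0.10). With the most variable probe set 1 gene was lower at gd12 than at gd11, 2 fell from gd12 to gd14, the gd16 minus gd14 median was -0.59, 2 rose from gd16 to gd18, and gd14 against its neighbours gave 0 lower. With 1 array left out, gd12 minus gd11 gave 0 to 1 lower, gd14 minus gd12 3 to 5 higher and 3 to 5 lower, gd16 minus gd14 0 to 1 higher (median -0.61 to -0.40), gd18 minus gd16 0 to 3 higher, pnd2 minus gd18 a median of 0.29 to 0.47, pnd2 minus gd11 1 to 2 higher (median -0.46 to -0.27), and gd14 against its neighbours 8 to 13 higher and 0 to 2 lower (median 0.088 to 0.27). The F test called 31 to 34 genes then. Of 376 changes of single named genes 348 kept direction and side of the threshold, 27 were no longer called and 1, that of Orc1, reversed. No paired analysis was possible because the sample numbers differ between all stages. Changes of genes with signals near 31 or below are compressed by the pseudocount.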

Other observations

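Among regulators of entry into S phase 20 of 22 listed genes were tested. From gd12 to gd14, 2 rose and 6 fell by limma with Benjamini-Hochberg adjustment (median -0.28), where 11.6% and 8.01% of all genes did. Ccne2, a cyclin that starts S phase, had 1807, 1857 and 2412 at gd11, 1503, 921 and 1299 at gd12, 5828, 4309.8 and 4950.5 at gd14, 1312, 1751 and 1688 at gd16, 1405, 2208 and 1805 at gd18, and 1087, 952 and 1459 at pnd2. Its gd14 arrays stood above all others, with a rise of 2.01 ± 0.21 and a later fall of -1.65 ± 0.21. Cdkn1b, an inhibitor of cyclin-dependent kinases, was the other gene to rise (0.87 ± 0.15). The falls were those of E2f8 (-1.39 ± 0.24) and E2f7, repressors of the E2F family, E2f3 (-0.81 ± 0.16), Ccna2, the cyclin of S phase and mitosis (-0.69 ± 0.18), E2f6 (-0.51 ± 0.15) and Rbl1, of the retinoblastoma family (-0.44 ± 0.15). Cdkn1c, another kinase inhibitor, fell from gd16 to gd18 (-0.90 ± 0.16) and again to pnd2 (-1.47 ± 0.16). Between gd11 and pnd2, 3 of the 20 were higher (Cdkn2c at 1.32, Cdkn1b and Rbl2) and 11 were lower, where 26.3% and 20.6% of all genes were. From gd14 to gd16, 2 rose and 1 fell, where 11.4% and 9.77% of all genes did. However, 0 rose and 2 fell without gd16 sample 7, and 0 rose and 3 fell after median scaling.

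Genes of mitosis moved in both directions around gd14. Bub1 had 3305, 2936 and 2960.1 at gd11, 3425, 3040.2 and 3076 at gd12, 8035, 6097 and 7001 at gd14, 2135, 2105 and 2889 at gd16, 2645, 3259 and 2285 at gd18, and 3084, 2032 and 3022 at pnd2. It was highest at gd14, where 9 of the 13 mitosis genes had fallen from gd12, and then changed by -1.56 ± 0.17. Top2a, which untangles replicated DNA, was also higher at gd14 than the mean of gd12 and gd16 (0.55 ± 0.12) and fell to gd16 (-1.05 ± 0.14). Ube2c had 1385, 1587 and 1062 at gd11, 1009.8, 906 and 971 at gd12, 374, 520.0 and 510.2 at gd14, 542, 505 and 398 at gd16, 496, 361 and 374 at gd18, and 2566, 1992 and 2439 at pnd2. Its pnd2 arrays lay above those of gd18 without overlap, and it was the only 1 of the 13 higher at pnd2 than at gd11 (0.79 ± 0.18), while 8 were lower. The summed signal of the 13 was 48630.0 to 49784 at gd11, 19330.0 to 23295 at gd18 and 28962 to 34500.1 at pnd2.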
